A study of Drosophila melanogaster with 24 samples.

Results

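Binding of CLK in bodies of Drosophila melanogaster is described here from the peak lists of the body CLK pull-down, set against the peak lists of the body mock pull-down. A site was a stretch in which peaks of both CLK replicates shared at least 1 bp. The CLK lists held 2433 and 1153 peaks, which merged into 2887 stretches, and 555 of these stretches were sites. The 10 lists read from the series held 41223 peaks in all.

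The study used chromatin immunoprecipitation with sequencing (ChIP-seq) on fly heads and bodies and made 24 libraries, 12 from pull-downs and 12 from inputs. The body CLK group came from flies of the strain labelled Clk, in which CLK carries the V5 tag. The body mock group came from w- flies, which have no tag, and both groups were pulled down with the same antibody against V5, with 2 libraries each that the study calls independent biological replicates. All flies were 5 to 10 days old, lived at 25 °C with 12 h of light and 12 h of dark, and were frozen at ZT13, which is 1 h after the lights went off. Ground bodies were cross-linked for 10 min with 1% formaldehyde, and 4 rounds of sonication followed. Set beside them were body CYC, from the strain labelled cyc with V5-tagged CYC, and head CLK and head mock, from heads of the Clk and w- strains that had 6 rounds of sonication, with 2 pull-downs each. The labels do not say how the tag was introduced. A body pull-down mixes all tissues outside the head, so weak binding in many cells and strong binding in few cells cannot be told apart, and with no expression values the labelled tissue could not be set against marker genes.

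CLK (Clock) and its partner CYC (Cycle) are transcription factors that bind E-box elements together and switch on the genes of the circadian clock. Their best known targets are period and timeless, whose proteins return to the nucleus and inhibit CLK, and vrille and Pdp1, whose proteins repress and activate the Clk gene. Clocks of this kind run in the brain and also in many peripheral tissues of the fly, such as the fat body, the gut and the Malpighian tubules.

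Each deposited list gives a place for every peak in the dm3 build and 2 scores without a name, here called the first and the second score, whose scale is unknown. No peak had a score under 2, so a place with no peak is one where none was called. The depth behind each list is unknown. Places are printed as deposited, and sites were put in order by the mean of their ranks by the first score in the CLK lists. The lists name no genes and no dm3 annotation was used here, so exons, introns and untranslated regions are not given. Windows around timeless, vrille, Pdp1 and period were drawn from general knowledge of where these genes lie in that build.

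The body CLK pull-down gave many more peaks than the body mock pull-down. Body CLK held 2433 peaks in replicate 1 and 1153 in replicate 2, or 1793 ± 905.1 (mean ± SD, n = 2), against 73 in replicate 1 and 175 in replicate 2 of body mock, or 124 ± 72.12 (mean ± SD, n = 2). Both CLK lists were longer than both mock lists, by 6.59-fold for the closest pair and 33.3-fold for the farthest. The difference of the means was 3.88 on the scale log2(peaks + 1), or 14.7-fold (exact permutation test, two-sided p = 0.333). This is the smallest p that the 6 arrangements of 2 against 2 libraries allow, so the design cannot reach 0.05. In heads the same difference was 0.80, or 1.74-fold, with 13729 and 4609 peaks in head CLK against 12082 and 1726 in head mock (exact permutation p = 0.667). The body difference exceeded the head difference by 3.08, or 8.43-fold, with p = 0.167 in an approximate permutation of residuals within tissue whose 36 arrangements allow 0.0556 at the smallest.

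**Figure D1:**
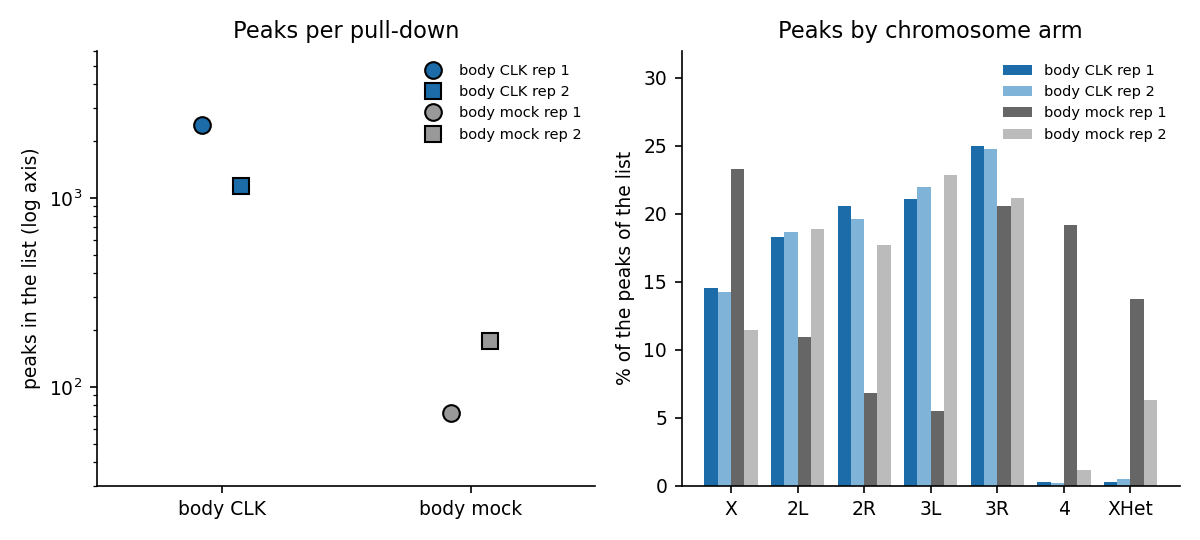
Number of peaks in each body pull-down on a log axis (left), and the percent of each list's peaks on each chromosome arm (right). Body CLK lists (2433 and 1153 peaks) lie above body mock lists (73 and 175), and mock replicate 1 has 19.2% of its peaks on chromosome 4, where CLK replicate 1 has 0.247%.

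The scaffold XHet, heterochromatin of the X, held 6 peaks in each CLK list, against 10 in mock replicate 1 and 11 in mock replicate 2. These counts are 0.247% and 0.520% of the CLK lists in replicates 1 and 2, against 13.7% and 6.29% of the mock lists, and the lists differed far more in length than in their number of XHet peaks. Chromosome 4 held 0.247% and 0.173% of the CLK peaks in replicates 1 and 2, against 19.2% and 1.14% of the mock peaks. There the mock lists differed from each other more than mock replicate 2 differed from CLK. Of the 555 CLK sites, 151 lay on 3R, 130 on 3L, 107 on 2L, 96 on 2R, 68 on X and 3 on XHet. None lay on chromosome 4, and 0 of 555 sites allows a share of up to 0.541% when 3 counts are taken as the limit, with a Clopper-Pearson upper bound of 0.662%.

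The stronger a CLK peak was by the first score in one replicate, the more often the other replicate had a peak at the same place. Over whole lists, 600 of 2433 replicate 1 peaks (24.7%) and 569 of 1153 replicate 2 peaks (49.3%) overlapped a peak of the other replicate. Among the 50 best peaks the share was 94% in replicate 1 (Clopper-Pearson 95% interval 83.5 to 98.7) and 100% in replicate 2 (92.9 to 100). Among ranks 201 to 500 it was 47.7% and 63.1%, and beyond rank 1000 it was 11.4% and 22.2%. Peaks found in both replicates had a median first score of 15.11 in replicate 1 and 9.21 in replicate 2, against 7.2 and 4.91 for peaks found in one replicate. Their median second scores were 6.26 and 3.33, against 4.06 and 2.66. Overlap was not counted by rank of the second score, and replicate 1 peaks at second-score ranks 8 and 10 had no partner. The intervals reflect counting error alone, and no peak counts as a replicate of a condition.

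**Figure D2:**
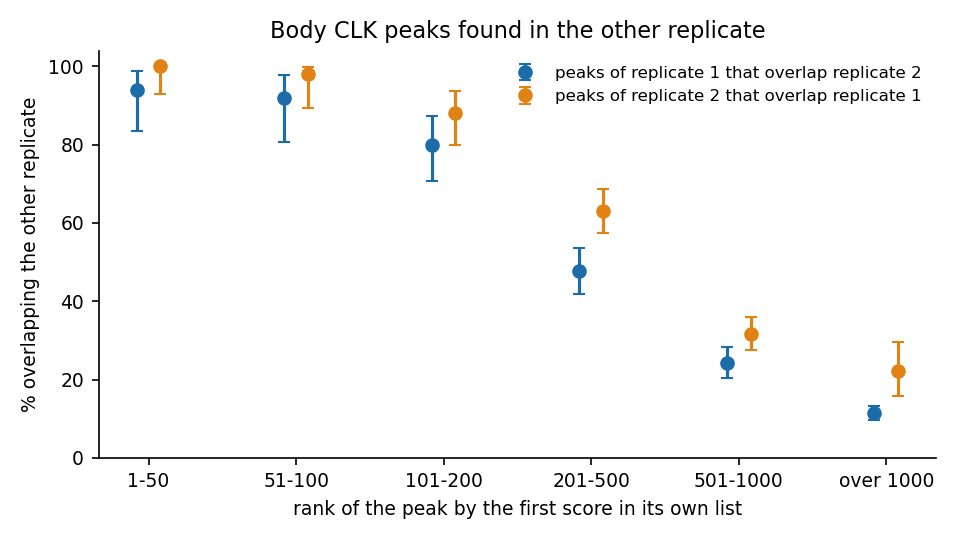
Percent of body CLK peaks that overlap a peak of the other replicate, by the first-score rank of the peak in its own list. Bars are Clopper-Pearson 95% intervals. The shares lie at 94% and 100% for ranks 1 to 50 and at 11.4% and 22.2% for ranks over 1000.

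A few peaks that were strong by the first score had no partner in the other replicate. The best such peak of replicate 1 lay on the mitochondrial genome, M 8622 to 8854, with a first score of 290.82 at rank 7 and a second score of 2.08. It overlapped no peak of any other list read. The next lay at X 5794614 to 5794846, with a first score of 73.23 at rank 24, where body mock replicate 1 also had a peak. They were followed by 3R 17661500 to 17661732 with 52.93, X 2684826 to 2685058 with 46.25 and 2R 5750131 to 5750363 with 37.12, all without a body mock peak. In replicate 2 the best unpartnered peak lay at XHet 189486 to 189794, with a first score of 26.73 at rank 52 and a peak in body mock replicate 2. The next, 2L 5306490 to 5306798 with 18.11, lay in the vrille window. The others were 2R 5452555 to 5452863, 3R 5775763 to 5776071 and 3R 13526926 to 13527234, with first scores of 15.23 to 16.74.

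By the first score, the 555 sites differed in strength by more than 2 orders of magnitude, and 6 of them stood above the rest. This gap was read from the same scores that ordered the sites. The median first score over sites was 15.71 in replicate 1 and 9.32 in replicate 2, and the highest lay 56.8-fold and 68.1-fold above these medians. First scores of at least 200 in both replicates were found at 6 sites, of at least 50 at 23 sites and of at least 10 at 247 sites. The sixth site had 354.93 and 255.59 in replicates 1 and 2, and the seventh had 172.85 and 151.87. Ranked by the second score, the fifth and sixth sites had mean ranks of 31.5 and 27. First scores fell further down the order. Site 25 had 72.42 and 45.95, site 100 had 32.43 and 15.46, and site 400 had 9.8 and 6.92.

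Over the sites, which by definition have a peak of both replicates, the order by the first score was much alike in the replicates. Midpoints of the CLK peaks lay a median of 38 bp apart (quartiles 16 and 81), and 14 bp apart at the 50 best sites. Peaks are 232 bp wide in replicate 1 and 308 bp in replicate 2 and must overlap at a site. Their midpoints were thus bound to lie close, and the distances are no test of agreement in place. Over the 555 sites the first scores of the replicates had a Spearman correlation of 0.77, and the second scores one of 0.50. These are correlations across places of the genome within a pair of libraries, given as descriptions. The first score of replicate 1 was the higher at 479 of 555 sites, with a median ratio of 1.59 (quartiles 1.22 and 2.06).

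**Figure D3:**
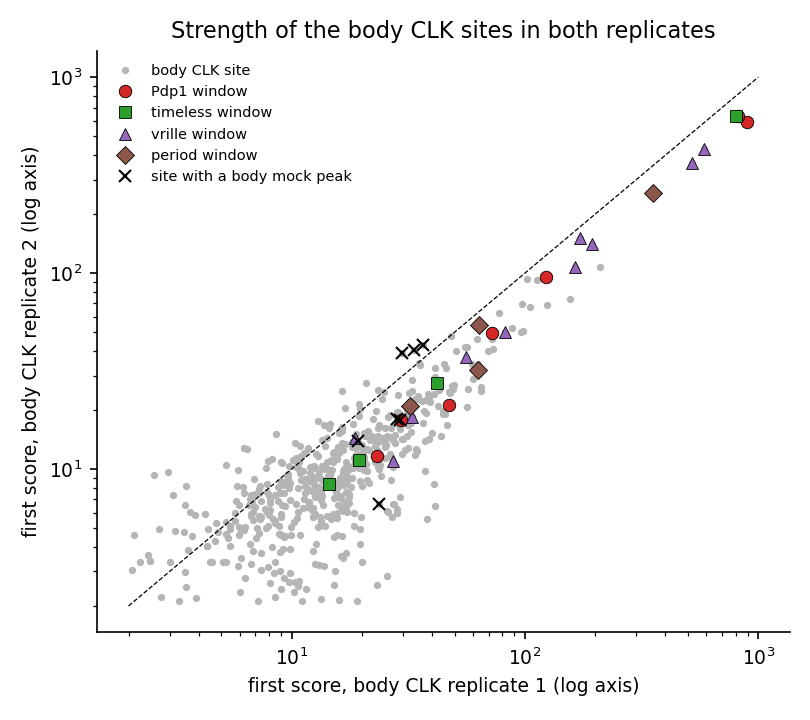
First score of each of the 555 body CLK sites in replicate 1 (x) and replicate 2 (y), both log axes, with the dashed line at equal scores. Sites in the clock gene windows and the 7 sites with a body mock peak are marked, and most sites (479 of 555) lie below the line.

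Ranked by the first score, the strongest sites lay at the 4 clock gene windows, which held 25 of the 555 sites and 9 of the 10 best. They also held 13 of the 25 best, 16 of the 50 best and 20 of the 100 best sites. Ranked by the second score, they held 4 of the 10 best and 14 of the 100 best sites. The body mock lists, with 73 and 175 peaks in all, had 0 peaks in each window. Head mock replicate 1, a list of 12082 peaks, had a peak at the best site of each window. Its first scores there were 17.22 at vrille, 14.26 at Pdp1, 12.13 at timeless and 7.02 at period. Head mock replicate 2 had none at these sites. The windows were chosen because these genes are known CLK targets, and their ranks in these lists were known beforehand, so the counts are a description.

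Pdp1 encodes a basic leucine zipper activator of Clk, and its window held the 2 best sites, 1420 bp apart. The site 3L 7828205 to 7828513 had first scores of 820.23 and 635.02 in CLK replicates 1 and 2. The site 3L 7826782 to 7827090 had 891.75 and 593.01. Another strong site, 3L 7826163 to 7826471, had 123.52 and 95.1, while the other 4 sites of the window had 23.32 to 72.49 in replicate 1 and 11.69 to 49.34 in replicate 2. Thus the leading pair exceeded every other site of the window in both replicates.

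Timeless encodes the partner of the PERIOD protein, and its window held 4 sites, of which 1 was far above the others. The site 2L 3507254 to 3507562 had first scores of 804.07 and 630.22 in CLK replicates 1 and 2, at ranks 3 and 2. Its neighbours had 14.43 to 42.13 in replicate 1 and 8.37 to 27.57 in replicate 2. The lead over the next site of the cluster was 19.1-fold in replicate 1 and 22.9-fold in replicate 2.

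Vrille encodes a basic leucine zipper repressor of Clk, and its window held 10 sites, the most of the 4. The best were 2L 5303196 to 5303504, with first scores of 587.27 and 430.79 in CLK replicates 1 and 2, and 2L 5305503 to 5305811, with 522.37 and 366.15. A peak of body mock replicate 1 with a first score of 7.64 lay outside the window, 4670 bp from the edge of 2L 5305503 to 5305811. The sites at 5301317, 5303791 and 5302660 had 164.65 to 194.37 in replicate 1 and 107.91 to 151.87 in replicate 2. The remaining 5 had 18.61 to 82.15 in replicate 1 and 10.93 to 50.25 in replicate 2. Strength was thus spread over several sites here, and the lead over the next site was 1.12-fold and 1.18-fold.

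Period encodes the protein that with TIMELESS inhibits CLK, and its window held 4 sites within 2638 bp. The site X 2578943 to 2579251 had first scores of 354.93 and 255.59 in CLK replicates 1 and 2, at rank 6 in both. The other 3 sites had 32.24 to 63.61 in replicate 1 and 20.96 to 54.48 in replicate 2.

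Outside these windows the best site was 2L 6612315 to 6612623, with first scores of 210.46 and 107.14 in CLK replicates 1 and 2. It ranked ninth, and a peak of body mock replicate 2 with a first score of 5.61 lay 17 bp from its edge. The site 2L 4811765 to 4812073 had 156.55 and 74.08 and also had a peak of body mock replicate 2 close by, 49 bp away with a first score of 16.23. The CLK peaks ranked 8 and 10 at the one site and 12 and 14 at the other in CLK replicates 1 and 2, and the mock peaks ranked 35 and 13 among the 175 of their list. No gene is named for these sites or for those that follow.

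The best site on 3R, 3R 278220 to 278528, had first scores of 112.3 and 91.99 in CLK replicates 1 and 2, and the best on 2R, 2R 14540398 to 14540706, had 105.47 and 67.3. The site 2L 6078937 to 6079245 had 124.69 and 68.48, and 3R 20394205 to 20394513 had 102.06 and 92.99. The last of the 20 best sites without a mock peak were 2L 12003066 to 12003583 with 77.66 and 62.31 and 3R 22974416 to 22974724 with 88.11 and 52.19. Just above them came X 17179155 to 17179463 with 97.47 and 69.97, and the site 3L 8678372 to 8678680 with 98.23 and 50.71. At 19 of the 20 sites the peaks of the replicates had midpoints 2 to 41 bp apart. At 2L 12003066 to 12003583, which holds 2 peaks of replicate 1, they lay 195 bp apart.

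The second score gave another order. Within a list the scores had a Spearman correlation of 0.41 and 0.39 over the peaks of CLK replicates 1 and 2, against -0.15 and -0.07 in mock replicates 1 and 2. By the second score the best site was X 8663156 to 8663464, with second scores of 97.64 and 128.73 in replicates 1 and 2 but first scores of 35.34 and 33.9. Next came the leading timeless site, with second scores of 75.84 and 102.09, and 3L 8675436 to 8675744, with 112.05 and 21.63. The site X 8663156 was chosen for mention after its values were seen.

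Many of the sites lay close together. With neighbours at most 5000 bp apart placed in one cluster, 193 of the 555 sites (34.8%, 95% interval 30.8 to 38.9) fell in 68 clusters. There were 40 clusters of 2 sites, 16 of 3, 5 of 4, 1 of 5, 3 of 6, 2 of 7 and 1 of 8, and 362 sites stood alone. Neighbours within a cluster lay a median of 1039 bp apart between their centres (quartiles 642 and 2262.5), and 58 of 125 neighbouring pairs lay within 1000 bp. Sites in clusters had a median first score of 18.18 in replicate 1 and 10.93 in replicate 2, against 14.66 and 8.655 for sites that stood alone.

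The largest cluster was the vrille one, with 8 sites in 8864 bp at 2L 5296947 to 5305811. The Pdp1 cluster, 3L 7822810 to 7830350, and a cluster at 3R 6213938 to 6220294 had 7 sites each. The clusters with 6 sites lay at 3L 8674395 to 8679135, 2R 14687991 to 14693974 and 3L 8691010 to 8698678. Large clusters were not always made of strong sites. The 3R cluster had first scores of 8.07 to 40.76 in CLK replicate 1 and 7 to 23.7 in replicate 2, and the 2R cluster had 14.23 to 36.68 and 10.02 to 25.01. None of their sites was among the 50 best, whereas 7 of the 8 vrille sites and 4 of the 7 Pdp1 sites were. In 47 of the 68 clusters the same site had the highest first score in both replicates, and the median lead over the next site was 1.67-fold in each replicate. Most clusters have only 2 sites. Of the 28 clusters with 3 or more sites, 12 had different leading sites in the replicates, the Pdp1 cluster among them.

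**Figure D4:**
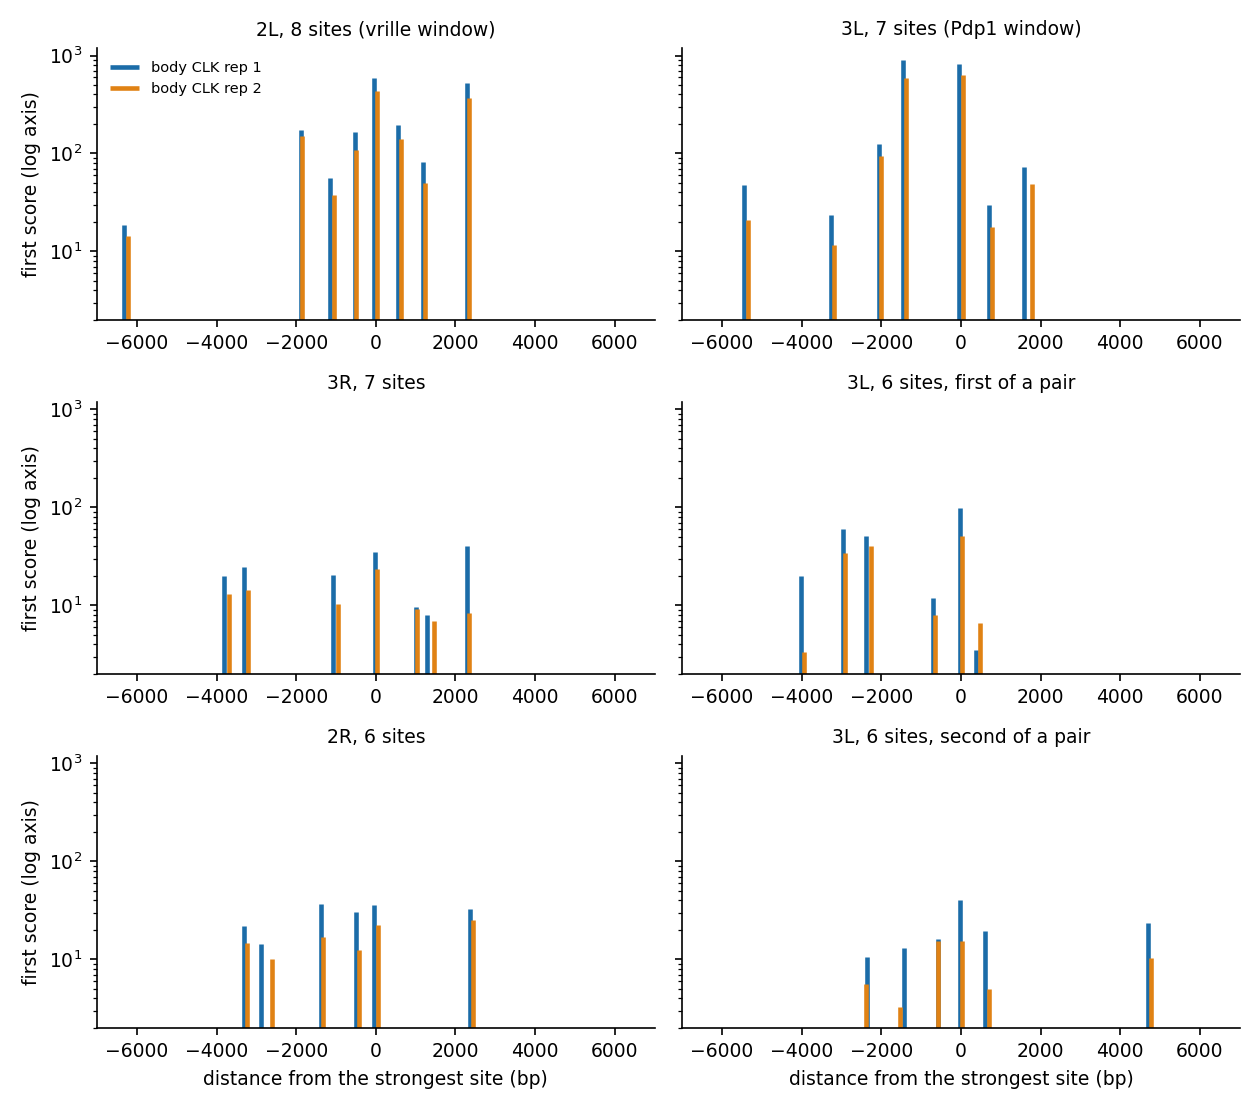
First score (log axis) of the sites in the 6 largest clusters of body CLK sites, by distance in bp from the strongest site of the cluster, with CLK replicates 1 and 2 side by side. The vrille and Pdp1 clusters reach 587.27 and 891.75 in replicate 1, and the other 4 reach 36.68 to 98.23. The 3L pair of 6 sites each lies at 8674395 (called first) and 8691010 (called second).

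The share of sites in clusters was highest among the strongest sites. It was 76% for the 25 best sites, 52% for places 26 to 50, 42% for places 51 to 100 and 24% to 38% in each group of places after that. The clock gene windows hold 13 of the 25 best sites. With the clusters rebuilt by the same rule from the 1153 best peaks of every list, 34.0% of 441 body CLK sites were in clusters (95% interval 29.6 to 38.6), against 42.2% of 479 body CYC sites (37.7 to 46.7) and 38.7% of 839 head CLK sites (35.4 to 42.1). By the same rule the whole body mock lists gave 6 sites, all of them in 1 cluster on XHet. These differences between groups were not tested across libraries.

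Of the CLK peaks and sites, few coincided with peaks of the much shorter mock lists. In CLK replicate 1, 30 of 2433 peaks (1.23%) overlapped a peak of either body mock list, and in CLK replicate 2, 10 of 1153 (0.867%) did. Counted from the mock lists, 12 of the 73 peaks of mock replicate 1 (16.4%) and 20 of the 175 of mock replicate 2 (11.4%) overlapped a peak of CLK replicate 1, and 3 and 11 overlapped one of CLK replicate 2. Among the 100 best CLK peaks the counts with a mock peak were 5 in replicate 1 and 4 in replicate 2. Of the 555 sites 7 (1.26%, 95% interval 0.509 to 2.58) had a body mock peak and 548 had none, and 25 of the 548 had a mock peak within 5000 bp. At equal list length the share was 1.59% for body CLK and 1.04% for body CYC against the body mock lists, and 57.4% for head CLK against the head mock lists, which are far longer.

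The 7 sites with a mock peak included 3 neighbours on XHet, which were the only sites there. XHet 191641 to 192021 had first scores of 36.61 and 42.96 in CLK replicates 1 and 2, XHet 191113 to 191433 had 33.56 and 40.3, and XHet 190448 to 190756 had 29.64 and 39.15. Unlike most sites they had the higher first score in replicate 2, and their second scores were only 2.16 to 2.77 in both replicates. The 5 best peaks of each body mock list all lay on XHet, between 190498 and 195995, with first scores of 45.87 to 55.87 in mock replicate 1 and 50.41 to 69.68 in mock replicate 2. The other 4 sites were 2L 6088361 to 6088697 with 29.18 and 17.7 in CLK replicates 1 and 2, 3R 24984443 to 24984751 with 28.24 and 17.91, 3L 21001924 to 21002232 with 19.24 and 13.84, and X 19061982 to 19062303 with 23.74 and 6.6. What the XHet peaks contribute to either pull-down was not tested.

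The strongest CLK sites all had peaks in the other tagged lists read, and the share was lower among weak sites. Peaks of both body CYC replicates were present at 288 of the 555 sites (51.9%, 95% interval 47.6 to 56.1), peaks of at least one at 492 (88.6%, 85.7 to 91.2) and none at 63. All 25 best sites had a peak in both body CYC lists, against 73% of places 101 to 200 and 16.4% of places 501 to 555. At the 288 sites the mean ranks of body CLK and body CYC had a Spearman correlation of 0.71. The CYC lists held 3967 and 1276 peaks and came from the same antibody and tissue, and a missing peak in the shorter list sets much of these shares.

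**Figure D5:**
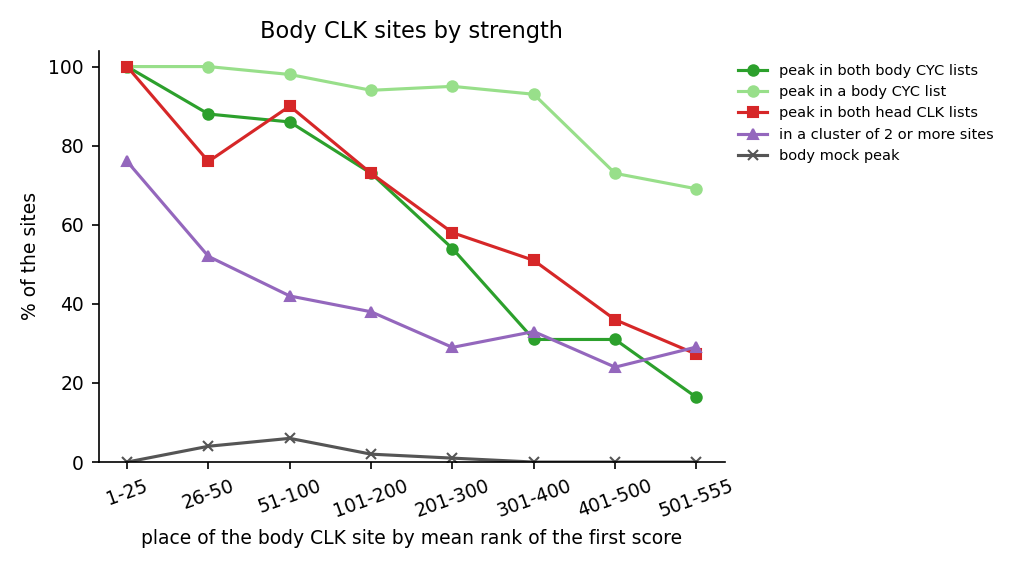
Percent of body CLK sites, by place in the order of strength, that have a peak in both body CYC lists, in at least one body CYC list, in both head CLK lists, that lie in a cluster, or that have a body mock peak. Shares with both CYC lists and both head CLK lists are 100% for places 1 to 25 and 16.4% and 27.3% for places 501 to 555, while the body mock share never passes 6%.

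In heads, peaks of both CLK replicates were present at 322 of the 555 body sites (58.0%, 95% interval 53.8 to 62.2) and peaks of at least one at 409 (73.7%, 69.8 to 77.3). All 25 best body sites had a peak in both head CLK lists. At the 322 sites the mean ranks of body CLK and head CLK had a Spearman correlation of 0.47. Head mock replicate 1 had a peak at 146 of the 555 body sites (26.3%) and at 15 of the 25 best, and head mock replicate 2 at 42 (7.57%).

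Some of the best body sites were far from the best places in heads. X 17179155 to 17179463 ranked 19 and 15 in body CLK replicates 1 and 2, and 598 and 454 in head CLK replicates 1 and 2. 3R 22974416 to 22974724 ranked 21 and 20 in body CLK, and 922 and 938 in head CLK, and 3L 8678372 to 8678680 ranked 18 and 21 in body CLK, and 1741 and 998 in head CLK. The head lists held 13729 and 4609 peaks, so these ranks are not on one scale and show no change between tissues. The first scores of the 3 sites in head CLK replicate 1 were 33.35, 24.71 and 15.07, in the same order, above the median of 4.55 in that list.

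No head CLK peak was called at 146 body sites, and 145 of these had no body mock peak either. Their first scores were low, with medians of 12.41 and 6.33 in body CLK replicates 1 and 2, against 19.19 and 12.1 at the 322 sites with a peak in both head CLK lists. Their second scores had medians of 9.51 and 3.06, against 6.505 and 3.755 at the same 322 sites. The strongest was 3L 8675436 to 8675744, with first scores of 59.6 and 34.27, followed by 2L 12590754 to 12591062, with 48.62 and 26.41 and a second score of 168.27 in replicate 1. Of the 145 sites 38 (26.2%, 95% interval 19.3 to 34.2) lay in clusters, against 155 of the 409 sites with a head CLK peak (37.9%, 33.2 to 42.8). Sites with a body mock peak were not removed from the 409. These include the XHet cluster of 3 sites and the sites of the clock gene windows, so the 2 sets are not alike.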

How the data were processed

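ChIP-seq reads were mapped by the authors with Bowtie 0.12.7 to dm3, per the submitters' processing notes. The peak caller is not given in the sources used here. The deposited lists hold each peak's place and 2 values, each used as a score in the authors' unit. Names of the lists pair each pull-down with its own input, and replicates were not pooled. Overlap meant at least 1 shared bp, a cluster at least 2 sites with gaps of at most 5000 bp, and intervals are Clopper-Pearson at 95%. Peak numbers were compared on log2(peaks + 1). Named sites are the 20 best without a mock peak, all with one, the largest clusters, the best per arm, the 5 best unpartnered or mock peaks per list, and those in the windows. Members, windows, lists and tests were chosen with earlier results of these data known. The 2 head CYC lists were not used here. Python 3.11.15, numpy 2.4.6, scipy 1.17.1 and pandas 2.3.3 were used.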

Additional observations from a re-analysis of the deposited data

How the results depend on the processing

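The difference in peak number between body CLK and body mock stayed positive under all alternatives run, at 3.25 to 4.50 without single libraries (exact permutation p = 0.333 in all of these). With a replicate block the exact permutation p was 0.5, the smallest that 4 arrangements allow, and 0.125 for the difference between tissues. The labels tie the replicate numbers to no shared batch, so the libraries were not taken as paired. Replicate 1 peaks were the narrower in all 5 groups read, and replicate 1 was the longer list in all but body mock. The difference between tissues was 1.67 without head mock replicate 1 and 4.48 without head mock replicate 2, with permutation p of 0.0556 to 0.444 over the 8 single omissions. Counts of sites depended on the score limit. Keeping peaks at or above the median first score of the 4 lists (7.335) left 340 sites, 336 of them without a mock peak and 108 in clusters, and the median second score (3.8) left 205, 203 and 59. Taking every stretch of a single CLK list as a site gave 1135 to 2329 sites, of which 511 to 1430 were in clusters. Without single libraries 548 to 2302 sites had no mock peak, and the share with one was 0.541% to 1.26%. A mock peak within 500 bp, a distance chosen after seeing the data, was found at 2.16% of sites. On the main arms alone, 0.725% of sites had a mock peak. Other overlap, arm, length and gap rules left the counts of sites, of sites without a mock peak and of sites in clusters within 1.5 times their values, with 151 to 236 sites in clusters for gaps of 2000 to 10000 bp. Ranked by the second score, 26 of the 27 best or mock-overlapped sites moved in mean rank by at least the SD of their first-score ranks. Where the replicates ranked a site alike this limit is small, so small shifts also count. Mean ranks went from 2.5 to 7.5 at 2L 3507254 and from 20.5 to 569.5 at 2L 12003066. Depth is unknown, so a missing peak does not show an unbound site.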

Other observations

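Joined over gaps of up to 10000 bp, the longest run of body CLK sites lay at 3L 8674395 to 8698678, with 13 sites in 24283 bp. It takes in both 3L clusters of 6 sites and 1 site between them. Its first scores reached 98.23 and 50.71 in CLK replicates 1 and 2, at 3L 8678372 to 8678680. Of the 13 sites, 12 had a peak in both body CYC lists and 6 had one in a head CLK list. Over all 555 sites these shares were 51.9% and 73.7%. The vrille window came next with 10 sites in 17019 bp, all of them with a peak in both body CYC lists and in a head CLK list. Beside the Pdp1 cluster, a run of 7 weaker sites lay at 3L 7842949 to 7860750, with first scores of up to 60.18 and 28.98. These runs were picked after their values were seen.

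Of the main arms, 3L had the highest share of its CLK sites in clusters and X the lowest. On 3L 61 of 130 sites (46.9%, 95% interval 38.1 to 55.9) lay in clusters, against 12 of 68 (17.6%, 9.46 to 28.8) on X. The best 50 sites included 18 of the 107 sites on 2L, 12 of 130 on 3L and 12 of 151 on 3R. They also included 5 of 68 on X, 2 of 96 on 2R and 1 of 3 on XHet. Among these, 7 lay in the vrille cluster and 2 in the timeless cluster, both on 2L. A further 4 lay in the Pdp1 cluster on 3L and 3 in the period cluster on X. The difference between arms was not tested, since sites of a cluster are not independent.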
